A study of Mus musculus with 6 samples.

Results

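Acute phase, complement and coagulation proteins are made in large part by hepatocytes and secreted into plasma. The members described here are 50 genes fixed by name, and each was measured by the probe set whose only annotated symbol was that gene, the brightest over the 6 arrays where there were several. Of the 50, 49 were measured and all 49 passed the filter on low signal, out of 12598 genes tested and 18193 with a named probe set. They fall into 3 subgroups that were treated apart: 22 acute phase genes, 12 complement genes of which 11 were measured, and 16 genes of coagulation, fibrinolysis and their inhibitors. C3 is not analysed here. The 3 fibrinogen chains, which are acute phase proteins and the substrate of clotting, were counted with the acute phase, and C1 inhibitor and vitronectin, which act in complement and in clotting, with coagulation.

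The study measured RNA of frozen liver from male mice on Affymetrix 3′ expression arrays, 1 array per mouse. There were 3 wild-type mice (WT) and 3 mice with a liver-specific knockout of Chrebp (ChLO), made by crossing floxed Chrebp mice with mice that carry Cre recombinase under the albumin promoter. Albumin-Cre deletes in hepatocytes, and how far other liver cells kept the gene was not measured here. At 12 weeks of age, all of them were fed 60% sucrose for 1 week. The sources used here do not give the background strain, or whether WT mice carried floxed alleles or Cre. ChREBP is a transcription factor activated by carbohydrate, and the comparison shows liver RNA with and without it under a sucrose load. Mlxipl, the gene of ChREBP, read 12.61, 12.56 and 12.59 log2 units in WT 1, 2 and 3 and 10.34, 11.22 and 11.48 in ChLO 1, 2 and 3. Array medians ran from 6.38 to 6.60 log2 units. Replicates are labelled as biological, so p-values measure the spread between mice.

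In the acute phase response, interleukin 6 and related cytokines act on hepatocytes through STAT3, and interleukin 1 acts through NF-kB and C/EBP factors. A few transcripts, above all Saa1, Saa2, Lcn2 and Orm genes, then rise steeply, while others such as fibrinogen and haptoglobin rise from a high resting level and albumin and transthyretin decline. Complement is a cascade of proteases that marks and lyses microbes through a lectin, a classical and an alternative route that end in a pore of C6, C8, C9 and related proteins. Coagulation ends in thrombin, which cuts fibrinogen to fibrin, and several of its proteases need vitamin K for their carboxylation in the liver. Most of these genes are set in the resting liver by hepatocyte factors such as HNF1, HNF4 and C/EBP alpha.

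Promoter sequences are shown for 9 members of both directions described below. They include all 6 whose ChLO 1 and ChLO 2 signals exceeded the WT range. The other 3 were picked from the 15 whose ChLO signals all lay under that range. RefSeq promoter windows on GRCm38.p6 matched 41 of the 50 members by symbol. Each sequence is the 250 bases before the annotated start, written 5′ to 3′ on the strand of the gene, and capitals mark matches on either strand to 5 motifs: TTGCNNAA for C/EBP, TTCNNNGAA for STAT factors, an NF-kB core, GTTAAT for HNF1 and CACGTG, the E-box core that ChREBP and other factors bind. Saa1 lies at chr7:46742981-46743230 (minus strand), Saa2 at chr7:46751583-46751832 (plus), Orm2 at chr4:63362199-63362448 (plus), Lcn2 at chr2:32387740-32387989 (minus), Steap4 at chr5:7960222-7960471 (plus) and Il1rn at chr2:24345121-24345370 (plus, 1 of 3 annotated windows). Itih1 lies at chr14:30943290-30943539 (minus), Masp2 at chr4:148602294-148602543 (plus) and F9 at chrX:59999214-59999463 (plus).
Saa1: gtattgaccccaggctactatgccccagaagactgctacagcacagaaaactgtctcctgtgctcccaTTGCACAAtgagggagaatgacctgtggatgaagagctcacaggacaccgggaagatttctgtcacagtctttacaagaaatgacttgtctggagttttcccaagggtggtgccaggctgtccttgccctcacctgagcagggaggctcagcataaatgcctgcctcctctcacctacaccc
Saa2: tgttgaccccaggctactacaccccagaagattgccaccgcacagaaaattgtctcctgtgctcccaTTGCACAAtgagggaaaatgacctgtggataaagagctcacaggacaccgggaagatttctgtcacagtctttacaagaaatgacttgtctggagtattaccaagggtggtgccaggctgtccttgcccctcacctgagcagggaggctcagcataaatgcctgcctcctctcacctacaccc
Orm2: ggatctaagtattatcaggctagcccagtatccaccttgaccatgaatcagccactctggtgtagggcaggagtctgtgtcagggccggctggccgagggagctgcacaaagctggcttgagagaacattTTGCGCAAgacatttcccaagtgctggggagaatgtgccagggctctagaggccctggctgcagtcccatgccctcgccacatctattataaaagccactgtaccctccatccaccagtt
Lcn2: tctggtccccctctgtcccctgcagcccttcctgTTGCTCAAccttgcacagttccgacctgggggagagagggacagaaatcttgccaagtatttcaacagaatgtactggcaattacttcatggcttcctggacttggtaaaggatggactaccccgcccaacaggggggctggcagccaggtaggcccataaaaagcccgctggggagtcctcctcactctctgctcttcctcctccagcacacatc
Steap4: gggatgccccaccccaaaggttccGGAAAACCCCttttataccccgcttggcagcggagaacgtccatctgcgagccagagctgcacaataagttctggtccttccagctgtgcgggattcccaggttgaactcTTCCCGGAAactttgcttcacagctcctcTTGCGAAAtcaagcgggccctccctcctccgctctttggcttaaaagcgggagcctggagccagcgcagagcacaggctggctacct
Il1rn: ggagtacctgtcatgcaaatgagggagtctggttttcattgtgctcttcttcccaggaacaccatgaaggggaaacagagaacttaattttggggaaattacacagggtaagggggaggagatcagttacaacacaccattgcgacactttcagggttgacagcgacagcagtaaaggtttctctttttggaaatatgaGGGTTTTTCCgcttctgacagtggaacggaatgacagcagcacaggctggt
Itih1: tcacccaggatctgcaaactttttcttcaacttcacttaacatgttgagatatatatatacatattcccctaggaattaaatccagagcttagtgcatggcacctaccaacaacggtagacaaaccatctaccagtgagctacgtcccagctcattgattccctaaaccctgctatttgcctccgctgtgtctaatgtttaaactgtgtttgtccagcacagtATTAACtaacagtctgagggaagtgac
Masp2: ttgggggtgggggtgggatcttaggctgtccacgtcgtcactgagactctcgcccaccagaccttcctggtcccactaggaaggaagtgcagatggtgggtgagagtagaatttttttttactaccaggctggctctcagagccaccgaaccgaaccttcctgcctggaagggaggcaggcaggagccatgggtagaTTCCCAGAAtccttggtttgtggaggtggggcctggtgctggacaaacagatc
F9: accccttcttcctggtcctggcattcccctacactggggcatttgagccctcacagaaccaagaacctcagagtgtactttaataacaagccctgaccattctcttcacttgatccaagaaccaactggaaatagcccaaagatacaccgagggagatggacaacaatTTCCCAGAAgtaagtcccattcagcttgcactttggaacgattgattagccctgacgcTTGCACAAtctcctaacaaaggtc

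The letters TTGCNNAA stood in the window of 13 of 20 acute phase members with a promoter, 2 of 9 complement members and 3 of 12 coagulation members, against 10.8% of all 27025 genes in the table. The Saa1 and Saa2 windows were 94.8% identical, and both hold TTGCACAA, beginning 182 and 183 bases before the start. In Orm2 the match is TTGCGCAA, beginning 120 bases before the start, and in Lcn2 TTGCTCAA, beginning 216 bases before it. Steap4 was the only window printed with a C/EBP, a STAT and an NF-kB match. Every printed window holds a match. The windows of F7 and the other windows of Il1rn hold none and are not printed. The STAT letters stood in 8 of 41 members against 8.13% of all genes, and Masp2 and F9 hold the same 9 letters, TTCCCAGAA, beginning 53 and 82 bases before the start. The NF-kB letters stood in 2 of 41 (1.65% of all genes), Steap4 and Il1rn. The HNF1 letters stood in 9 of 41 (7.49%), among them Itih1, Fga, Fgb and C8b. The E-box letters stood in 0 of 41 windows, against 6.86% of all genes. The median GC content was 48.0% over the members' windows and 52.4% over all windows. A match is a string of letters, not a binding site, and its absence says only that these letters are not in this window.

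In ChLO livers 40 of 49 members had lower mean signals than in WT, including all 16 of coagulation, and 9 had higher means (43.5% and 56.5% of all genes). Among the 22 acute phase genes, 6 exceeded the WT range in both ChLO 1 and ChLO 2, a share of 27.3% that was near the 23.3% of all genes. Lcn2 was 6.11-fold higher on average and Il1rn 3.96-fold higher. Among the lower ones, Itih1 was 1.73-fold, Masp2 1.75-fold, F7 1.64-fold, F10 1.62-fold and F9 1.61-fold lower. No member passed the threshold of limma with Benjamini-Hochberg adjustment over all genes, an adjusted p of 0.05. The smallest adjusted p among the members was 0.177, for Il1rn, so rises and falls are not called here. Over all genes 0 of 12598 passed (0.00%).

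At an unadjusted limma p under 0.05, a looser rule, 2 of 49 members were higher and 9 lower. Over all genes tested 5.46% were higher and 3.50% lower by that rule, 8.96% in all, against 22.4% of the members. The WT and ChLO values did not overlap for 17 members, 2 higher and 15 lower, where 9.04% of all genes were higher and 6.19% lower without overlap. The median difference, ChLO minus WT, was -0.34 log2 units over the 49 members and 0.06 over all genes. These counts depended on ChLO 3, whose Mlxipl signal was the highest of the 3 knockout arrays. Without ChLO 3, 4 members passed the adjusted threshold, 2 higher (Lcn2, adjusted p = 0.0221, and Il1rn, adjusted p = 0.0198) and 2 lower (F7, adjusted p = 0.0309, and Masp2, adjusted p = 0.0421), where 2.40% of all genes passed, 1.60% higher and 0.802% lower. In that fit 24 members had an unadjusted p under 0.05, where 12.4% of all genes were higher and 8.04% lower by that rule. By array, ChLO 1, ChLO 2 and ChLO 3 exceeded the WT range for 8, 6 and 6 of 49 members (38.8%, 31.5% and 31.0% of all genes). They lay under it for 33, 27 and 18 members (29.2%, 25.0% and 24.0%), so the members leaned low in ChLO 1 and ChLO 2, and ChLO 3 was the nearest to WT.

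**Figure D1:**
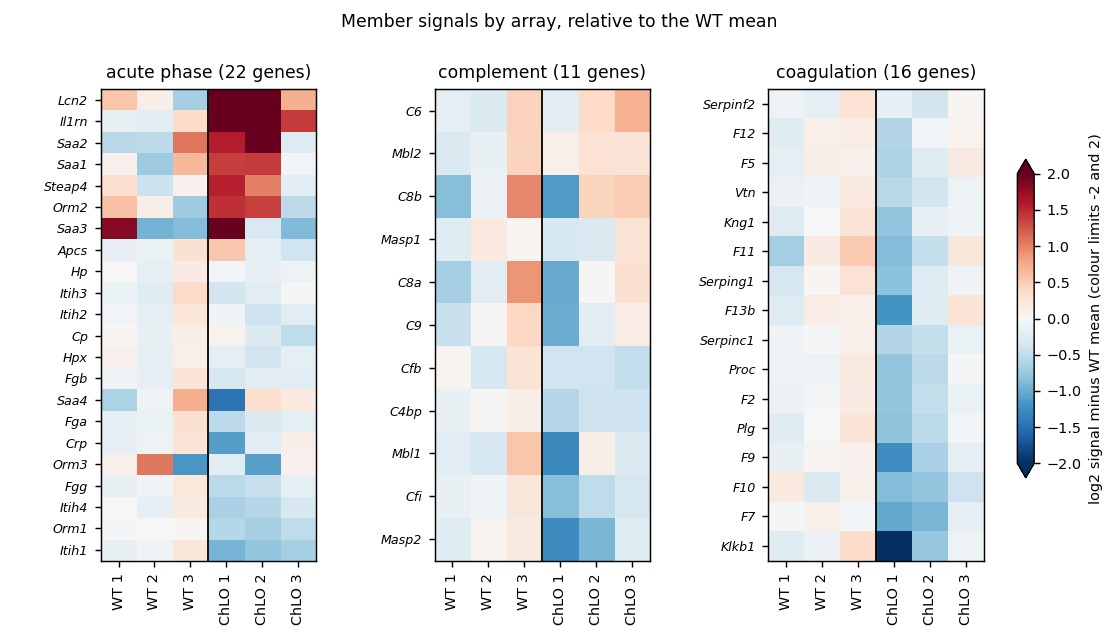
Each cell is the log2 signal of a gene (rows, italic) in an array (columns) minus the mean of the 3 WT arrays, with red for higher and blue for lower and colours capped at -2 and 2. The red block in ChLO 1 and ChLO 2 holds Lcn2, Il1rn, Saa2, Saa1, Steap4 and Orm2, and the coagulation genes are mostly blue in ChLO 1, paler in ChLO 2 and palest in ChLO 3.

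Lcn2, lipocalin 2, binds bacterial siderophores and is a strongly induced acute phase protein. It read 9.33, 8.90 and 8.12 log2 units in WT 1, 2 and 3 and 13.25, 11.44 and 9.50 in ChLO 1, 2 and 3. All 3 ChLO arrays lay above every WT array, ChLO 3 by little, and the ChLO values spread over 3.75 log2 units. The difference was 2.61 (SE 0.83), with a limma adjusted p of 0.455. Il1rn, the interleukin 1 receptor antagonist, which blocks interleukin 1 at its receptor, read 6.76, 6.69 and 7.28 in WT and 9.47, 8.91 and 8.31 in ChLO. No ChLO array came within the WT range. Its difference was 1.99 (SE 0.34), ranked 32 of 12598 genes by p. The other 2 Il1rn probe sets differed by 2.03 and 1.16, so the direction was the same on all 3. On the first of these the groups overlapped, with 7.54, 3.49 and 7.17 in WT and 7.08 in ChLO 3.

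Saa1 and Saa2 encode the serum amyloid A proteins that hepatocytes release in inflammation. Saa1 read 12.97, 12.16 and 13.55 in WT and 14.28, 14.30 and 12.84 in ChLO. Saa2 read 10.05, 10.09 and 11.68 in WT and 12.18, 12.63 and 10.35 in ChLO. For both genes ChLO 1 and ChLO 2 were above every WT array, ChLO 3 lay within the WT range, and WT 3 was the highest WT array. The difference was 0.91 (SE 0.47) for Saa1 and 1.11 (SE 0.64) for Saa2, and neither passed (limma adjusted p = 0.60 and 0.63). The genes are near-identical copies, so probe sets of the pair may read each other's transcript and their values are not independent. Saa3, made also by macrophages, was high in 1 array of each group, at 12.29 in WT 1 and 12.82 in ChLO 1 against 9.52 to 10.16 in the other arrays. Saa4, a constitutive serum amyloid A, read 12.86, 13.40 and 14.22 in WT and 12.02, 13.81 and 13.68 in ChLO, with a difference of -0.32 (SE 0.52). Unlike Saa1 and Saa2, it was at its lowest in ChLO 1.

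The orosomucoids, or alpha-1-acid glycoproteins, are plasma carriers of drugs and lipids, and their probe sets differed in direction. Orm1 read 14.96, 15.00 and 15.04 in WT and 14.44, 14.34 and 14.50 in ChLO, with SDs of 0.04 and 0.08 (n = 3 each). Its groups did not overlap, and its WT spread was the narrowest among the acute phase members. The difference was -0.58 (SE 0.16), with a limma adjusted p of 0.431. Orm2 read 10.33, 9.88 and 9.04 in WT and 11.22, 11.12 and 9.23 in ChLO, so that ChLO 1 and ChLO 2 were above every WT array and ChLO 3 was among them. Its difference was 0.77 (SE 0.56). Orm3 was dim and variable, from 5.68 to 7.91 in WT and 5.77 to 6.94 in ChLO. Orm1, Orm2 and Orm3 are close paralogs, and how far their probe sets share transcripts is not known here.

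Steap4, a metalloreductase induced by inflammation and feeding, read 11.87, 11.11 and 11.63 in WT and 13.10, 12.54 and 11.31 in ChLO. It followed Saa1 in that ChLO 1 and ChLO 2 exceeded every WT array and ChLO 3 did not, with a difference of 0.78 (SE 0.43). Its other probe set differed by 0.85. The 6 genes Lcn2, Il1rn, Saa1, Saa2, Orm2 and Steap4 were thus the members whose ChLO 1 and ChLO 2 signals both exceeded the WT range, a pattern about as frequent among the 22 acute phase genes as among all genes. They were higher under every scaling of the arrays and in every fit that left out 1 array. The pattern that picked them nearly fixes this outcome, so it is no further support for a rise.

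**Figure D2:**
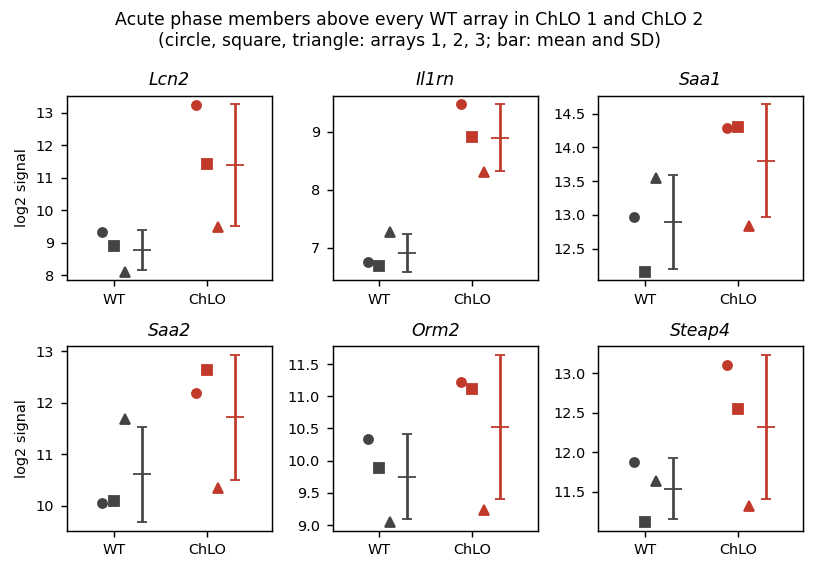
Log2 signals of the 6 acute phase genes whose ChLO 1 and ChLO 2 signals exceeded the WT range, with 1 point per mouse (circle, square and triangle for arrays 1, 2 and 3) and the mean with its SD beside each group, on axes that do not start at 0. ChLO 3, the triangle, lies within the WT range for Saa1, Saa2, Orm2 and Steap4 and above it for Lcn2 and Il1rn.

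The remaining acute phase genes had lower or similar signals in ChLO. Itih1, a heavy chain of the inter-alpha-trypsin inhibitors that bind hyaluronan, read 12.61, 12.69 and 12.99 in WT and 11.83, 11.98 and 12.10 in ChLO. The groups were clearly apart, with a difference of -0.79 (SE 0.17) and a limma adjusted p of 0.273, the smallest among the members with lower signal. Itih4, of the same family, read 15.17, 15.01 and 15.36 in WT and 14.53, 14.61 and 14.85 in ChLO, again without overlap, and differed by -0.51 (SE 0.18). Itih2 and Itih3 overlapped between groups, at -0.24 (SE 0.19) and -0.20 (SE 0.21).

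The 3 fibrinogen chains were alike. Fga read 15.17, 15.19 and 15.63 in WT and 14.81, 15.05 and 15.13 in ChLO. Fgb read 15.52, 15.44 and 15.86 in WT and 15.29, 15.38 and 15.38 in ChLO. Fgg read 15.38, 15.46 and 15.73 in WT and 14.98, 15.05 and 15.32 in ChLO. Each ChLO array lay below every WT array for all 3 chains, but by small amounts, with differences of -0.34 (SE 0.20), -0.25 (SE 0.19) and -0.40 (SE 0.19). For Fgb the sign turned with quantile normalization, at 0.07.

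Crp, C-reactive protein, which is only a weak acute phase protein in mice, read 14.00, 14.06 and 14.44 in WT and 13.06, 13.94 and 14.30 in ChLO, with ChLO 1 the only array far from the rest. Apcs, serum amyloid P, which is the main pentraxin of the mouse acute phase, differed by -0.01 (SE 0.27). Haptoglobin (Hp) and hemopexin (Hpx), which bind free haemoglobin and haem, differed by -0.10 (SE 0.17) and -0.25 (SE 0.18), and ceruloplasmin (Cp), the copper ferroxidase, by -0.24 (SE 0.21). WT and ChLO values overlapped for these 4 genes, and each turned sign under quantile normalization, at 0.10, 0.12, 0.04 and 0.06 in the order named. Of the 22 acute phase genes, 7 had higher and 15 lower means in ChLO, with a median difference of -0.24. By the unadjusted rule 2 were higher and 3 lower (5.46% and 3.50% of all genes), and 11 of 22 passed it without ChLO 3 (20.4% of all genes). With quantile normalization 12 were higher and 10 lower, where 47.1% of all genes were lower. With scaling to the hybridization spike-in controls the counts were 13 and 9, where 21.2% of all genes were lower. The direction of this subgroup's median was thus not settled. The 6 genes above kept theirs, but they were picked by their high ChLO 1 and ChLO 2 values.

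Of the complement genes 9 of 11 had lower means in ChLO, with a median difference of -0.35. With quantile normalization 9 were lower (47.1% of all genes) and the median was -0.17. With spike-in scaling 6 were lower (21.2% of all genes) and 5 higher, with a median of -0.10 (0.31 over all genes). Masp2, the protease that starts the lectin route by cutting C4 and C2, read 11.66, 11.97 and 12.08 in WT and 10.64, 10.99 and 11.66 in ChLO. ChLO 3 lay just under the lowest WT array, and ChLO 1 and ChLO 2 well below it. The difference was -0.81 (SE 0.27), with a limma adjusted p of 0.471, and its other probe set differed by -0.59. Masp1, the related protease, differed by -0.12 (SE 0.22), and of its 3 other probe sets past the filter 2 were higher and 1 lower in ChLO, at 0.10, 0.45 and -0.09.

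Cfi, factor I, which inactivates C3b and C4b, read 14.68, 14.73 and 15.05 in WT and 13.96, 14.31 and 14.49 in ChLO, a difference of -0.57 (SE 0.21). C4bp, the C4b-binding protein that serves as its cofactor, read 14.09, 14.26 and 14.35 in WT and 13.66, 13.82 and 13.82 in ChLO, a difference of -0.47 (SE 0.16). For both regulators every ChLO array lay below every WT array, and both had an unadjusted p under 0.05. Cfb, factor B of the alternative route and itself an acute phase gene, read 13.21, 12.83 and 13.43 in WT and 12.76, 12.75 and 12.66 in ChLO. It too did not overlap, by a narrow margin below WT 2, with a difference of -0.43 (SE 0.19).

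The 4 members that belong to the terminal pore, C6, C8a, C8b and C9, overlapped between groups. C8a read 13.25, 13.68 and 14.79 in WT and 12.89, 13.93 and 14.21 in ChLO. C8b read 11.47, 12.20 and 13.28 in WT and 11.18, 12.76 and 12.82 in ChLO. In both groups array 1 was the lowest, and the WT values of C8b spread over 1.81 log2 units against a difference of -0.06 (SE 0.55). C9 differed by -0.35 (SE 0.34) and C6 by 0.30 (SE 0.29). The mannose-binding lectins Mbl1 and Mbl2, which recognise microbial sugars, differed by -0.48 (SE 0.39) and 0.21 (SE 0.22), and their groups overlapped.

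By the unadjusted rule 0 of 11 complement genes were higher and 3 lower (5.46% and 3.50% of all genes), and 4 were lower without overlap (6.19%). Without WT 3 or without ChLO 2 the first of these counts was 0, and with spike-in scaling both counts were 0. The median difference was -0.027 without ChLO 1 and -0.14 without WT 3. Relative to the WT mean the subgroup median stood at -0.86 for ChLO 1, -0.20 for ChLO 2 and 0.15 for ChLO 3, and ran from -0.24 to 0.41 over the WT arrays, so ChLO 2 and ChLO 3 lay within the WT range.

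All 16 genes of coagulation, fibrinolysis and their inhibitors had lower means in ChLO, where 43.5% of all genes did, with differences from -0.95 to -0.16 and a median of -0.39. F7, factor VII, which starts clotting with tissue factor, read 12.19, 12.33 and 12.19 in WT and 11.21, 11.32 and 12.04 in ChLO. WT arrays were close together, ChLO 1 and ChLO 2 lay far below them and ChLO 3 just below, a difference of -0.71 (SE 0.24) with a limma adjusted p of 0.468.

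F9, factor IX, whose loss causes haemophilia B, read 13.38, 13.58 and 13.61 in WT and 12.29, 12.87 and 13.34 in ChLO. F10, factor X, which makes thrombin as part of prothrombinase, read 13.59, 13.10 and 13.49 in WT and 12.53, 12.60 and 12.97 in ChLO. Neither overlapped between groups, with differences of -0.69 (SE 0.26) and -0.69 (SE 0.20). The 2 other F10 probe sets differed by -0.54 and -0.56, and on the first of these ChLO 3, at 10.44, lay above WT 1, at 10.39. F2, prothrombin, read 14.85, 14.92 and 15.12 in WT and 14.20, 14.49 and 14.84 in ChLO, which left ChLO 3 next to WT 1, and differed by -0.45 (SE 0.21). Proc, the anticoagulant protein C, differed by -0.44 (SE 0.22), with ChLO 3 within the WT range. F7, F9 and F10 were the 3 coagulation genes with an unadjusted p under 0.05.

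The contact route, in which factor XII, prekallikrein and kininogen start clotting on surfaces and release bradykinin, was represented by Klkb1, F11, F12 and Kng1. Klkb1, prekallikrein, read 12.84, 12.96 and 13.44 in WT and 11.09, 12.33 and 12.98 in ChLO. It had the lowest mean difference of all members, -0.95 (SE 0.44), but ChLO 3 lay within the WT range. F11 differed by -0.37 (SE 0.37), F12 by -0.19 (SE 0.22) and Kng1 by -0.34 (SE 0.24), all with overlap. F5, the cofactor of factor X, and F13b, the carrier subunit of the fibrin-crosslinking enzyme, differed by -0.23 (SE 0.23) and -0.39 (SE 0.35), and for both ChLO 3 was above every WT array.

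Among the inhibitors, Serpinc1, antithrombin, read 15.34, 15.38 and 15.51 in WT and 14.82, 14.94 and 15.27 in ChLO, without overlap, a difference of -0.40 (SE 0.19). Serping1, C1 inhibitor, Serpinf2, the plasmin inhibitor, and Vtn, vitronectin, differed by -0.38 (SE 0.26), -0.16 (SE 0.20) and -0.34 (SE 0.20), and Plg, plasminogen, by -0.46 (SE 0.25). Their groups overlapped.

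Within the ChLO group the coagulation genes were ordered alike. ChLO 3 was the highest ChLO array for 16 of 16 and ChLO 1 the lowest for 15, whereas over all genes ChLO 3 was the highest for 39.2% and ChLO 1 the lowest for 34.2%. The full order, ChLO 1 below ChLO 2 below ChLO 3, held for 15 of 16, against 25.2% of all genes. It held also for 7 of 11 complement genes, where ChLO 1 was the lowest for 10. Among the 7 hepatocyte markers described below, ChLO 3 was the highest for 6 and the full order held for 2. The Mlxipl signal was in the same order, lowest in ChLO 1 and highest in ChLO 3, which with 3 mice is a description. The Actb 3′ minus 5′ probe set difference, a sign of RNA integrity, ran in that order too, at 0.84, 1.03 and 1.46 log2 units in ChLO 1, 2 and 3 against 1.13 to 1.38 in WT, and its part in the order was not tested. Relative to the WT mean the coagulation median stood at -0.79 for ChLO 1, -0.47 for ChLO 2 and -0.08 for ChLO 3, and ran from -0.17 to 0.17 over the WT arrays. By the unadjusted rule 3 genes were lower (3.50% of all genes), and 1 without WT 2 or ChLO 2. Without ChLO 3 it was 10 of 16, where 20.4% of all genes passed in either direction. All 16 were lower under the deposited scaling and with quantile normalization (43.5% and 47.1% of all genes). With spike-in scaling 13 were lower (21.2% of all genes), where F5, F12 and Serpinf2 turned sign. Without ChLO 1, 14 were lower (43.5% of all genes).

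**Figure D3:**
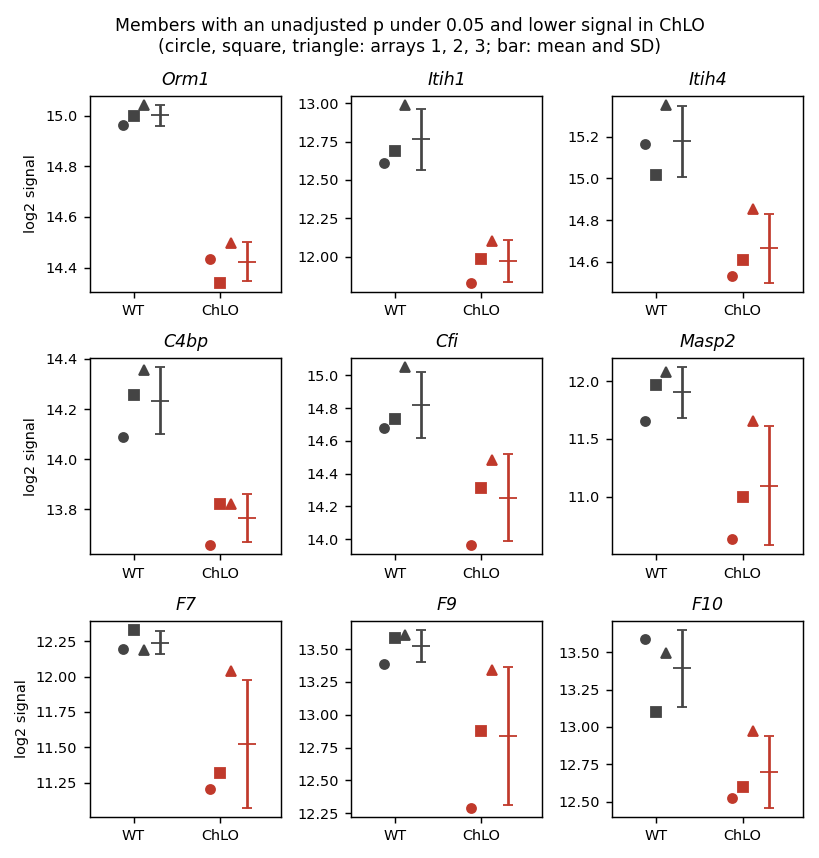
Log2 signals of the 9 members with a lower mean in ChLO and an unadjusted limma p under 0.05, with 1 point per mouse (circle, square and triangle for arrays 1, 2 and 3) and the mean with its SD beside each group, on axes that do not start at 0. The groups do not overlap for any of the 9, and for Masp2, F7 and F9 the ChLO 3 triangle lies close under the WT values.

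Hepatocyte markers had lower means as well. Of 8 listed, 7 were tested (Serpina1a is not analysed here), and all 7 had lower means in ChLO, and relative to the WT mean their median stood at -0.47 for ChLO 1, -0.45 for ChLO 2 and -0.17 for ChLO 3. With quantile normalization 5 of the 7 were lower and with spike-in scaling 6 (47.1% and 21.2% of all genes). The median difference moved from -0.36 to -0.11 under both. Their summed signal was 18.26 to 18.43 log2 units in WT and 17.93, 17.87 and 18.19 in ChLO 1, 2 and 3. Asgr1, the asialoglycoprotein receptor, had an unadjusted p under 0.05 at -0.83 (SE 0.28), and Alb differed by -0.19 (SE 0.19). The part of this shift in the lower plasma protein signals was not tested. In whole liver, fewer hepatocytes and less RNA per hepatocyte cannot be told apart.

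**Figure D4:**
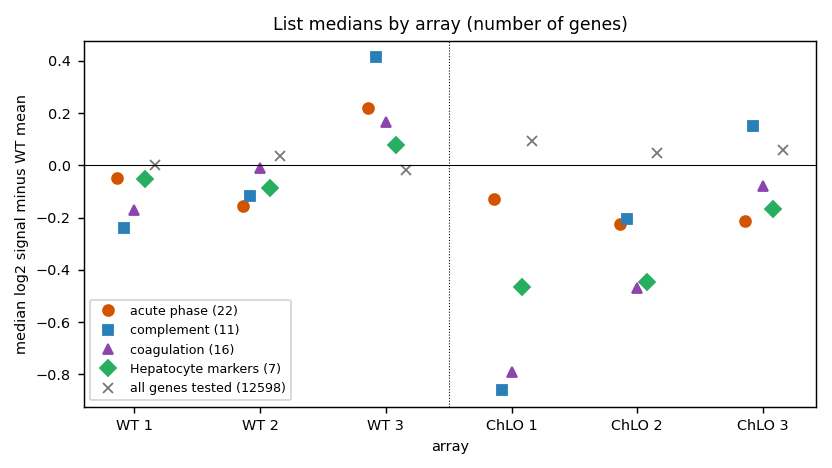
Median over each list of the log2 signal minus the WT mean, by array, for the 3 subgroups, 7 hepatocyte markers and all 12598 genes tested. Coagulation and complement are lowest in ChLO 1, at -0.79 and -0.86, hepatocyte markers lie at -0.47 and -0.45 in ChLO 1 and ChLO 2, and the acute phase medians of the ChLO arrays, -0.13 to -0.23, hide genes of both directions.

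Marker lists of other liver cells differed in how they stood in ChLO 1 and ChLO 2, where the 6 acute phase genes were high. Of 7 neutrophil markers 4 were tested, and relative to the WT mean their median stood at 2.17 for ChLO 1, 1.90 for ChLO 2 and -0.16 for ChLO 3. Their summed signal, Cxcr2 included, was 8.19 to 9.0 log2 units in WT and 10.12, 9.97 and 8.38 in ChLO. S100a8 read 9.03 and 8.85 in ChLO 1 and ChLO 2 and 5.43 to 7.73 in WT, and S100a9 and Csf3r also exceeded the WT range in both. Mpo went the other way, at 5.07 and 4.29 against 6.31 to 6.68 in WT, and Cxcr2 was below the filter at 3.91 to 4.78 in all 6 arrays. The 7 macrophage markers summed to 13.65 to 13.76 in WT and 13.86, 14.23 and 13.55 in ChLO, and 5 of the 7 means were higher, 0 with an unadjusted p under 0.05. Their differences ran from -0.14 for Clec4f and -0.06 for Vsig4 to 1.13 for Cd68, which read 10.72 and 9.78 in ChLO 1 and ChLO 2 against 8.31 to 8.64 in WT. The 6 stellate cell markers summed to 12.45 to 13.20 in WT and 13.88, 14.36 and 12.68 in ChLO. The 6 endothelial markers summed to 12.69 to 12.93 in WT and 12.70, 13.15 and 12.77 in ChLO, so that only the sum of ChLO 2 exceeded WT. Clec4g was the largest part of that sum, at 10.94 in ChLO 1 against 11.79 to 12.15 in WT. By gene, 4 of the 6 lay above every WT array in ChLO 1 and 2 below. Relative to the WT mean their median stood at 0.29, 0.48 and -0.05 in ChLO 1, 2 and 3. The 5 measured bile duct markers summed to 7.75 to 8.54 in WT and 10.58, 9.52 and 8.47 in ChLO. Cldn4 was the largest part of that sum in ChLO 1 and ChLO 2, at 9.95 and 8.09 against 4.71 to 6.10 in WT. Of the bile duct means 4 were higher and 1, that of Krt7, lower. The 4 platelet markers summed to 9.23 to 9.73 in WT and 9.97, 9.84 and 9.31 in ChLO. Lcn2, Il1rn and Saa3 are made by myeloid cells as well as by hepatocytes, and the part of these cells in the higher signals was not tested.

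The cytokine pathway that drives the acute phase was read from a list of 24 genes, of which 20 were tested. By the unadjusted rule 3 were higher and 0 lower (5.46% and 3.50% of all genes), and 15 of the 20 means were higher (56.5%). Cebpd, a C/EBP factor induced by cytokines, read 8.70, 9.30 and 9.61 in WT and 9.66, 10.79 and 10.31 in ChLO, without overlap, a difference of 1.05 (SE 0.34). Socs3, the STAT3-induced inhibitor of interleukin 6 signalling, read 8.21, 7.51 and 9.14 in WT and 8.78, 10.78 and 9.96 in ChLO, with ChLO 1 inside the WT range. Osmr, the oncostatin M receptor, read 7.57, 7.23 and 7.23 in WT and 9.24, 8.49 and 7.72 in ChLO, a difference of 1.14 (SE 0.39). Lifr, the receptor subunit of leukaemia inhibitory factor, differed by -1.23 (SE 0.60). The smallest limma adjusted p of the list was 0.466. Il6 and Tnf were below the filter, at 1.05 to 5.85 and 2.27 to 5.72 log2 units over the 6 arrays.

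Albumin, transthyretin and other proteins that decline in an acute phase response formed a list of 10, of which 8 were tested. All 8 had lower means in ChLO (43.5% of all genes), with a median difference of -0.27. Alb, Apoa1 and Ttr are also among the hepatocyte markers, so the lists are not independent. Fetub, fetuin B, had an unadjusted p under 0.05 at -0.64 (SE 0.26), and Ttr differed by -0.28 (SE 0.19). With quantile normalization 4 of the 8 were lower (47.1% of all genes) and the median was 0.01. Spike-in scaling left 6 of the 8 lower (21.2% of all genes), with a median of -0.02.

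Of 22 further complement genes 13 were tested, and by the unadjusted rule 2 were lower and 0 higher (3.50% and 5.46% of all genes). C8g, the small subunit of C8, read 14.64, 14.65 and 14.66 in WT and 12.98, 13.77 and 14.22 in ChLO, a difference of -0.99 (SE 0.30) with WT arrays almost equal. Hc, which encodes C5, differed by -0.61 (SE 0.23). C1qa and C1qb, made by macrophages, differed by 0.40 (SE 0.23) and 0.57 (SE 0.28).

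Of 24 further genes of coagulation and fibrinolysis 21 were tested, and 1 was higher and 5 lower by the unadjusted rule (5.46% and 3.50% of all genes). Hgfac, the secreted protease that activates hepatocyte growth factor, read 12.55, 12.87 and 12.72 in WT and 11.32, 11.31 and 11.99 in ChLO, a difference of -1.17 (SE 0.22) with a limma adjusted p of 0.224. Ggcx, the vitamin K-dependent carboxylase, read 10.32, 10.11 and 10.18 in WT and 9.51, 9.57 and 9.84 in ChLO, a difference of -0.56 (SE 0.17). Lman1, the cargo receptor that carries factors V and VIII out of the endoplasmic reticulum, differed by -0.52 (SE 0.17). Pros1, the cofactor of protein C, went the other way, reading 10.80, 10.65 and 10.76 in WT against 11.17, 11.40 and 11.48 in ChLO, a difference of 0.61 (SE 0.16) without overlap. The other two lower genes, named after their values were seen, were Vkorc1, which recycles vitamin K, at -0.66 (SE 0.24), and Habp2 at -0.52 (SE 0.20).

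The scaling of the arrays bears on all of these values, since 32 of the 49 members lay among the brightest 5% of the genes tested by mean signal. Scaling to the spike-in controls moved the median of all genes from 0.06 to 0.31 log2 units. Under it 28 of 49 members were lower, where 21.2% of all genes were. Of the 49, 5 had an unadjusted p under 0.05, where 16.0% of all genes did. Quantile normalization left 35 members lower and 10 with such a p (47.1% and 8.27% of all genes). The part of RNA content or array brightness in the lower signals was not tested.

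**Figure D5:**
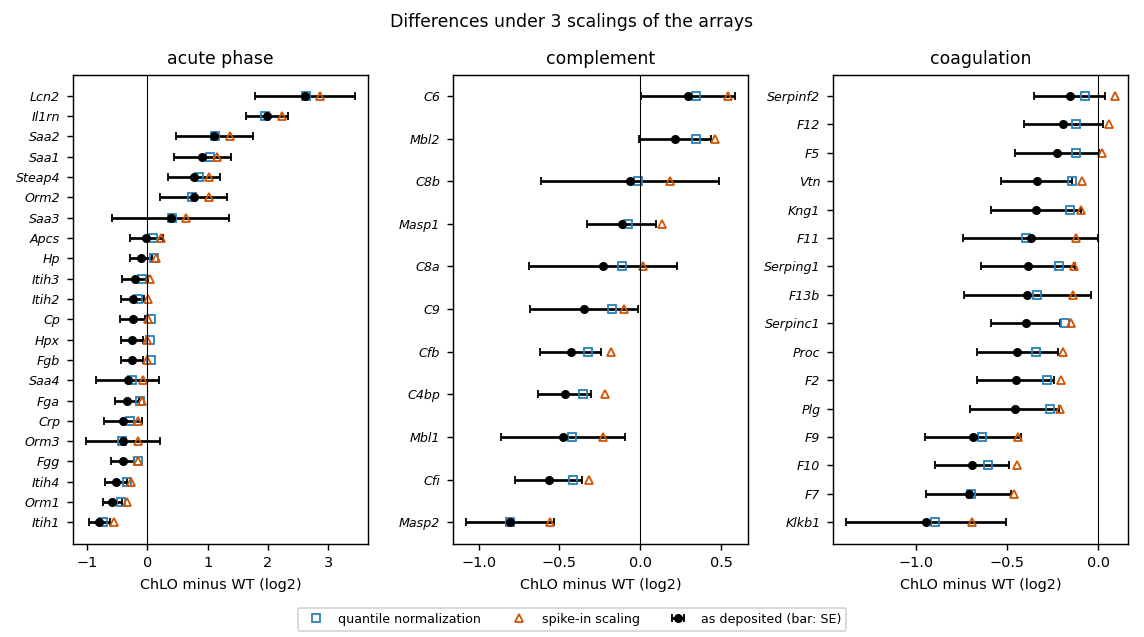
Difference between ChLO and WT (log2 units, horizontal) of each member as deposited (black, with the SE of limma), after quantile normalization (blue squares) and after scaling to the spike-in controls (orange triangles). Lcn2, Il1rn, Saa2, Saa1, Steap4 and Orm2 stay above 0 and Itih1, Masp2, F7, F9 and F10 below 0 under all 3, while genes such as Hp, Hpx and Cp cross it.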

How the data were processed

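The authors deposited 1 table of log2 signals for 45101 probe sets on 6 arrays. MAS5 is named in the submitters' processing notes without version or parameters, and no genome build is given in the sources used here. On the linear scale each deposited column has a mean of 500 after trimming 2% from each end, as MAS5 global scaling gives. This scaling hides a change shared by most transcripts. Array number limits the precision.

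Probe sets were named through the platform annotation, of which 34945 had 1 symbol, and the 64 control probe sets were left out. All 71 probe sets of the members kept their symbol in a current gene table. Probe sets with a mean under the 40th percentile (5.50 log2 units) were left out, and each gene was read by its brightest probe set over the 6 arrays. Values for 12598 genes were compared in R 4.3.3 with limma 3.58.1 (lmFit, eBayes with a mean-variance trend, no block) and p-values adjusted by Benjamini-Hochberg over all of them. Differences are ChLO minus WT, and SE is limma's moderated standard error. The procedure was tested on simulated data.

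The members, the gene lists and the rule for names were chosen with earlier results of these data known. The rule names all members, Mlxipl and up to 4 genes of each other list by smallest p, with cell markers as values only. The promoter motifs were chosen after the expression values were known. Alternatives were other scalings, filters, variance models, array weights and probe set rules, the replicate number as a block and leaving out each array. Deviations of same-numbered arrays correlated over genes at 0.30, -0.17 and 0.06 for replicates 1, 2 and 3, not above 0.1 in every pair, so replicate numbers were not treated as pairing the mice.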

Additional observations from a re-analysis of the deposited data

How the results depend on the processing

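The 6 higher genes and Itih1, Masp2, F7, F9 and F10 kept their direction under every alternative in which they were fitted. Of the 49 members 32 did so, these genes included, so a kept direction does not set them apart. Quantile normalization gave an acute phase median of 0.052, with 5 acute phase and 2 complement genes without overlap. Spike-in scaling gave 2013 genes at an unadjusted p under 0.05 (16.0% of all genes) and an acute phase median of 0.0070. Under it 5 acute phase genes did not overlap, 0 complement genes passed by either count, and 1 coagulation gene by p and 2 without overlap. With equal array medians 3 coagulation genes did not overlap. The share of all genes without overlap was not counted under these scalings, so these counts have no background here. Without the low-signal filter 3 genes passed the adjusted threshold of limma. Array weights gave 568 such genes and 3137 at an unadjusted p under 0.05 (4.51% and 24.9% of all genes). Among the latter were 12 acute phase and 9 coagulation genes, but the estimation of the weights gave a convergence warning. Without probe sets of several transcripts 3 of 17 acute phase genes had such a p (8.62% of all genes). The cause of these shifts was not tested.

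Leaving out 1 array at a time gave 0 to 302 genes past the adjusted threshold and 700 to 2575 at an unadjusted p under 0.05. Medians ran from -0.32 to -0.084 (acute phase), -0.54 to -0.027 (complement) and -0.64 to -0.25 (coagulation). Counts at an unadjusted p under 0.05 ran from 4 to 11, 0 to 3 and 1 to 10 in the same order. Counts without overlap ran from 8 to 13, 4 to 5 and 5 to 10, and leaving out an array can only keep or raise them. Without ChLO 3, 23.3% of all genes were higher and 16.0% lower without overlap. Fitting the replicate number as a block, though the numbers do not pair the mice, gave 1 gene past the adjusted threshold. In that fit 7 of 16 coagulation genes had an unadjusted p under 0.05, where 10.6% of all genes did. Detection calls were not used here, so how far the dimmest member, Orm3, lay above background is unknown.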

Other observations

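Within the WT group the members were often highest in the same array. WT 3 was the highest WT array for 39 of 49 members (17 of 22 acute phase, 10 of 11 complement and 12 of 16 coagulation genes), against 28.1% of all genes tested. It was also the highest for 7 of 8 genes that decline in an acute phase response and 4 of 7 hepatocyte markers. The pattern was thus not particular to the members. Among the exceptions were Lcn2, Orm2 and Orm3, for which WT 3 was the lowest WT array, at 8.12, 9.04 and 5.68 log2 units.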
